A study of Mus musculus with 6 samples.

Results

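The genes described here encode the proteases that cut matrix and membrane proteins at the cell surface, and the inhibitors that hold them in check. They are 9 rows of an FPKM table of 21878 gene symbols, chosen by name: Mmp14, Adam10, Adam17, Plat and Plau among the proteases, and Timp1, Timp2, Timp3 and Serpine2 among the inhibitors. All 9 symbols were in the table. RNA sequencing had been done on B16F10, an established mouse melanoma line, with 3 libraries from cells kept in RPMI-1640 and 3 from cells kept in DMEM. Both media were supplemented with 10% fetal bovine serum and antibiotics, all cells are labelled wild type at time 0, and the DMEM titles carry an unexplained code, HG. The labels also carry a protocol for adipogenic differentiation with dexamethasone, isobutylmethylxanthine and insulin, and nothing says whether any of it was applied to these cells.

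Pericellular proteolysis works through a few linked systems. Mmp14 is a matrix metalloproteinase anchored in the plasma membrane that cleaves collagen and activates secreted pro-Mmp2. The tissue inhibitors of metalloproteinases (TIMPs) bind the active site of metalloproteinases, though not each enzyme equally well. Timp2 has a further role, since it forms the complex through which Mmp14 activates pro-Mmp2, while Timp3 stays bound to the matrix and also inhibits Adam17. Adam10 and Adam17 are membrane-bound sheddases that release the ectodomains of Notch receptors, adhesion molecules, growth factors and cytokines. Plat and Plau are the tissue-type and urokinase-type activators that turn plasminogen into plasmin, and Serpine2, or protease nexin-1, is a serpin that inhibits them and thrombin.

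The promoters of 7 of the 9 genes were available from RefSeq on GRCm38.p6, as windows of 300 bases from 250 before to 50 after the annotated start. Those of the rising genes with the largest log2 fold changes as deposited (Timp3 and Adam10), of the only membrane-type metalloproteinase in the set (Mmp14) and of the inhibitor that went the other way (Timp1) are shown 5′ to 3′, all on the plus strand. The windows are chr10:86300162-86300461 for Timp3, chr9:70678732-70679031 for Adam10, chr14:54431348-54431647 for Mmp14 and chrX:20869916-20870215 for Timp1. Capitals mark matches, on either strand, to the GC box GGGCGG, the E-box CACGTG, the AP-1 motif TGANTCA and its variant TGAGTAA.
Timp3: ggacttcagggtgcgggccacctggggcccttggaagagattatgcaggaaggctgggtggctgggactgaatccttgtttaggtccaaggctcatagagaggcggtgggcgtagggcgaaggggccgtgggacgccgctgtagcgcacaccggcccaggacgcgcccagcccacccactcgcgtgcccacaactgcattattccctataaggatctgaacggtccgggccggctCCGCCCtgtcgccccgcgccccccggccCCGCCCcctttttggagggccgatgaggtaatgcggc
Adam10: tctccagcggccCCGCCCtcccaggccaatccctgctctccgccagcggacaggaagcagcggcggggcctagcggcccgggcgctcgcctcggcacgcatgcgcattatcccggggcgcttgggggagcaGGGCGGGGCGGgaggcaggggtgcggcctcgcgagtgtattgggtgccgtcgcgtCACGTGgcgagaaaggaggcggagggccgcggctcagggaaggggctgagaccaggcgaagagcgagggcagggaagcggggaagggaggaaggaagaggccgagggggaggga
Mmp14: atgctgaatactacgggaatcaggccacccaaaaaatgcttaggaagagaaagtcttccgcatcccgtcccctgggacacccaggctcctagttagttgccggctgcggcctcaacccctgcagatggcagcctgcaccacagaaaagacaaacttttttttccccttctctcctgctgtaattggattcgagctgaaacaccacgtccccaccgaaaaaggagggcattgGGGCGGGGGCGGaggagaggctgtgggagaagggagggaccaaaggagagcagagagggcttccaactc
Timp1: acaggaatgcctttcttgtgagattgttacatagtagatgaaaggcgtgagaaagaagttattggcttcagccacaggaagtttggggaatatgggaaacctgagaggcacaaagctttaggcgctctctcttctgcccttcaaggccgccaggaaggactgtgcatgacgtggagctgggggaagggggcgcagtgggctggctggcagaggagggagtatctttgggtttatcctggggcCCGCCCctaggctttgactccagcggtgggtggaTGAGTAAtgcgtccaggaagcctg
A GC box stood in every one of these windows, and in 35.7% of the 32851 promoter windows of the same table. Timp3 had 2 matches, Adam10 3, of which 2 overlap by a base, Mmp14 2 that adjoin, and Timp1 1. The E-box, found in 7.15% of all windows, was matched in Adam10, 64 bases before the start. The AP-1 motif, in 7.81% of all windows, had no match in any of the 7 windows, and its variant, added with the Timp1 sequence in view and found in 2.68%, had 1, in Timp1, 26 bases after the start. These matches describe the letters of the windows and say nothing on which factors bind them.

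Recovered library totals were between 37828000 and 45361000 reads in RPMI-1640 and between 36960000 and 46404000 in DMEM-HG. A gene was tested with limma when its mean over the 6 libraries was at least 1 FPKM, which 10624 genes met, and a Benjamini-Hochberg adjusted p under 0.05 was called. Of these, 8078 (76.0%) were called, 4316 (40.6%) higher and 3762 (35.4%) lower in RPMI-1640, and for 79.0% the ranges of the media were apart. On values brought to a common total, the median log2 fold change over all genes went to 0.19, against 0.033 as deposited, and the calls split into 5472 higher and 2654 lower. A log2 fold change here is the RPMI-1640 mean less the DMEM-HG mean of log2(FPKM + 1), a scale that understates changes of low genes, and levels are means ± SD over 3 libraries. Separate cultures are not stated for the replicate libraries, whose spread, the measure behind every p-value, may therefore be technical. Within a medium, DMEM-HG replicate 3 stood farthest from the others (chi-square per degree of freedom 23.8 and 28.5, against 8.54 between the other DMEM-HG libraries and 4.65 to 8.95 in RPMI-1640). Every DMEM title also has a 3 before its replicate number and every RPMI title a 1, codes that cannot be told apart from the medium. Fold changes also ran with gene length and base composition (Spearman across 10302 genes 0.464 with length and -0.469 with GC content), from a median of -0.32 in the shortest of 10 length bins to 0.55 in the longest. A second fit, with this trend removed from each library, is given beside the results where it changes a call or moves a value by over 1.5 times, and for the 7 tested genes throughout. All 9 melanocyte markers looked at were above 1 FPKM, with summed levels of 10958 to 11127 FPKM in RPMI-1640 and 13446 to 13680 in DMEM-HG. Mitf (means 81.5 FPKM in RPMI-1640 and 55.8 in DMEM-HG) and Tyr (144 and 127) went against that sum. The other melanocyte markers had higher means in DMEM-HG, with Tyrp1 nearly level (3764 FPKM in RPMI-1640 and 3837 in DMEM-HG). Markers of other cell types were low in all libraries. Fibroblast markers summed to 8.69 to 9.18 FPKM in RPMI-1640 and 5.83 to 6.34 in DMEM-HG, with Dcn and Thy1 at 0 throughout. Of these, Pdgfrb and Col1a2 averaged at least 1 FPKM over the libraries. Pdgfrb had means of 4.98 FPKM in RPMI-1640 and 4.73 in DMEM-HG, and Col1a2 of 3.10 and 0.567. Macrophage markers summed to 3.09 to 3.71 FPKM in RPMI-1640 and 4.09 to 4.38 in DMEM-HG, with Ptprc and Adgre1 at 0 throughout. Of these, Cd68 and Lyz2 averaged at least 1 FPKM. Cd68 had means of 1.74 FPKM in RPMI-1640 and 2.61 in DMEM-HG, and Lyz2 lay between 1.28 and 1.97 FPKM in all libraries. Adipocyte markers summed to at most 0.102 FPKM in RPMI-1640 and 0.614 in DMEM-HG, with 5 of 8 at 0 in every library, among them Fabp4 and Lep.

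Most of the set was higher in RPMI-1640. Mmp14, Timp2, Timp3, Adam10 and Adam17 rose there by 1.12-fold to 1.94-fold, Timp1 and Plat fell, and Plau and Serpine2 were too low to test. Of the 7 genes tested, 5 were thus higher and 2 lower, where 76.0% of all genes tested were called in either direction. The ranges of the media were apart for all 7, and for 79.0% of all genes tested. Each of the 7 had p = 0.1 in an exact two-sided permutation test, which is the minimum for 3 against 3. With the length and GC trend removed, 5 were higher, 1 lower and 1 did not pass, where 73.9% of 10302 genes were called, 37.2% higher and 36.8% lower. In bulk RNA, a lower level in each cell and a smaller share of cells expressing a gene cannot be told apart.

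**Figure D1:**
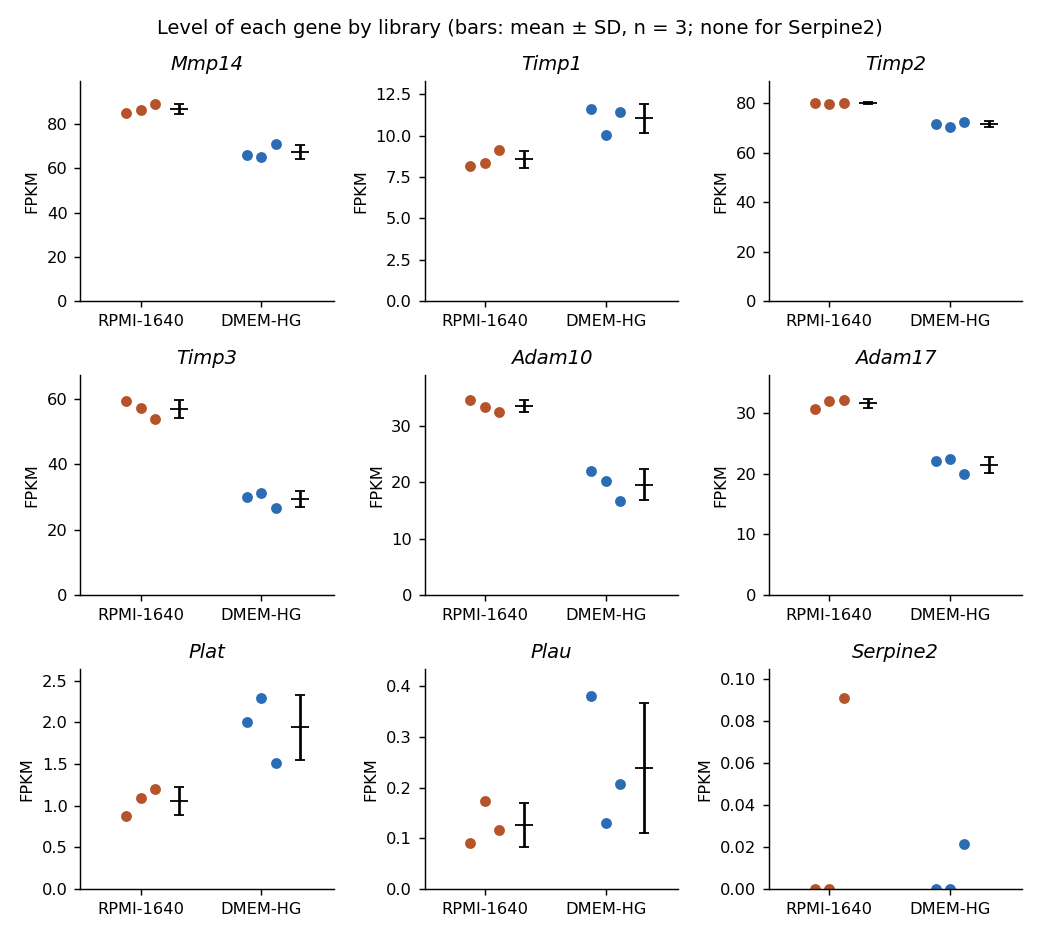
FPKM of each of the 9 genes in the 3 RPMI-1640 libraries (left, orange) and the 3 DMEM-HG libraries (right, blue), each panel with its own linear axis from 0; black bars give mean ± SD, n = 3, and are left out for Serpine2. The media do not overlap for Mmp14, Timp1, Timp2, Timp3, Adam10, Adam17 and Plat, with Timp1 and Plat lower in RPMI-1640, and they overlap for Plau and Serpine2.

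The order of the levels differed a little between the media. In RPMI-1640 the order was Mmp14 (86.9 ± 2.09 FPKM), Timp2 (80.1 ± 0.364), Timp3 (56.8 ± 2.74), Adam10 (33.4 ± 1.04), Adam17 (31.5 ± 0.800), Timp1 (8.56 ± 0.508), Plat (1.05 ± 0.166), Plau (0.126 ± 0.0429) and Serpine2. There the ranges of neighbours overlapped for Plau and Serpine2 alone. In DMEM-HG, Timp2 (71.6 ± 1.17) stood before Mmp14 (67.5 ± 3.10) and Adam17 (21.4 ± 1.31) before Adam10 (19.5 ± 2.69), but in both pairs the ranges of the 3 libraries overlapped. Timp3 (29.3 ± 2.34) stood between these pairs, and Timp1, Plat (1.94 ± 0.394), Plau (0.239 ± 0.128) and Serpine2 followed.

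Among the metalloproteinases, Mmp14 was modestly higher in RPMI-1640. It had 85.1, 86.3 and 89.2 FPKM in the RPMI-1640 libraries, against 66.2, 65.4 and 71.1 FPKM in the DMEM-HG libraries, on 9181 to 14878 reads per library. Every RPMI-1640 library lay above every DMEM-HG library, by 1.29-fold on the means (log2 fold change 0.36, SE 0.048, limma adjusted p = 3.66e-05). Its log2 fold change was 0.43 without the length and GC trend (limma adjusted p = 1.96e-06), a larger value than as deposited. Mmp14 (ENSMUSG00000000957.11) spans 54431612 to 54445364 of chromosome 14, plus strand, in GRCm38.

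Timp3, the matrix-bound inhibitor, had the largest log2 fold change of the 7 tested genes as deposited, while Plat exceeded it in size with the length and GC trend removed. It had 59.3, 57.2 and 53.8 FPKM in the RPMI-1640 libraries, against 30.0, 31.3 and 26.7 FPKM in the DMEM-HG libraries. The media were far apart compared with the spread within them, 1.94-fold on the means (log2 fold change 0.93, SE 0.063, limma adjusted p = 2.10e-07). Its log2 fold change with the trend removed was 0.61 (limma adjusted p = 2.01e-07). The gene (ENSMUSG00000020044.13, plus strand of chromosome 10, 86300372 to 86349506) lies inside Syn3, a synapsin gene on the opposite strand, and 21.3% of its annotated exon bases are shared with exons of Syn3. The sources used here do not say whether counting used strand, so these reads could not be assigned with certainty. Syn3 itself was listed at 1.95 ± 0.151 FPKM in RPMI-1640 and 1.58 ± 0.243 in DMEM-HG, far below Timp3, and did not pass (log2 fold change 0.20, limma adjusted p = 0.0623, or 0.0419 with the replicate number as a block). In the fit without the trend, Syn3 turned to -0.21 and passed as lower (limma adjusted p = 0.016).

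Timp2, the inhibitor that also takes part in the activation of pro-Mmp2, was steady within each medium and slightly higher in RPMI-1640. It had 80.3, 79.7 and 80.3 FPKM in the RPMI-1640 libraries, against 71.8, 70.3 and 72.7 FPKM in the DMEM-HG libraries. The gap was small but wider than the spread, at 1.12-fold (log2 fold change 0.16, SE 0.042, limma adjusted p = 0.00469). The log2 fold change was 0.32 with values scaled to a common total, where the median over all genes was 0.19. It was 0.28 under quantile normalization and 0.24 in the fit without the length and GC trend. Smaller values than as deposited came from voom on recovered reads (0.15) and median-ratio scaling (0.12, limma adjusted p = 0.0287). Timp2 passed in each. Timp2 (ENSMUSG00000017466.9) spans 118301069 to 118355740 of chromosome 11, minus strand.

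Timp1, a secreted inhibitor that many growth factors and cytokines induce, went the other way. It had 8.18, 8.36 and 9.14 FPKM in the RPMI-1640 libraries, against 11.6, 10.0 and 11.4 FPKM in the DMEM-HG libraries, on 275 to 457 reads per library. Every RPMI-1640 library lay below every DMEM-HG library, with 1.29-fold more in DMEM-HG (log2 fold change -0.33, SE 0.072, limma adjusted p = 0.00135). This call did not hold with the trend removed, where the log2 fold change was 0.042 (limma adjusted p = 0.467). The gene is short, 862 bases by the FPKM steps, and the genes of its length bin had a median log2 fold change of -0.32. Brought to a common total, it was -0.19 and still passed (limma adjusted p = 0.037). Timp1 (ENSMUSG00000001131.11, plus strand of chromosome X, 20870166 to 20874735) lies inside Syn1 on the opposite strand, with no exon base shared. Syn1 was higher in RPMI-1640 (5.77 ± 0.296 FPKM against 4.47 ± 0.242 in DMEM-HG, log2 fold change 0.31, limma adjusted p = 0.00175, and 0.55 with the trend removed).

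As deposited, the make-up of the TIMP pool differed between the media, while the ratio of Mmp14 to it overlapped between them. The 3 TIMP genes summed to 148, 145 and 143 FPKM in the RPMI-1640 libraries, against 113, 112 and 111 FPKM in the DMEM-HG libraries. Timp3 made up 37.6% to 40.1% of that sum in RPMI-1640 and 24.1% to 28.0% in DMEM-HG. Timp2 made up 54.4% to 56.0% in RPMI-1640 and 63.0% to 65.6% in DMEM-HG, and Timp1 5.54% to 6.38% and 8.99% to 10.3%. Shares were not computed with the length and GC trend removed. There the log2 fold changes of Timp3, Timp2 and Timp1 were 0.61, 0.24 and 0.042, against 0.93, 0.16 and -0.33 as deposited. The ratio of Mmp14 to the summed TIMP genes was 0.576, 0.594 and 0.622 in the RPMI-1640 libraries, against 0.584, 0.585 and 0.641 in the DMEM-HG libraries, and the ranges overlapped. On the log2 scale the ratio was -0.74 ± 0.056 in RPMI-1640 and -0.72 ± 0.076 in DMEM-HG, a difference of -0.015 (exact two-sided permutation p = 0.7, also 0.7 adjusted over the 2 ratios computed). With the trend removed the difference was 0.086 (exact permutation p = 0.2). On these values the replicate numbers did not meet the rule for pairs given below. Taken as pairs all the same, the difference lay above 0 in 3 of 3 pairs (exact permutation p = 0.25, the smallest that 3 pairs allow). These are ratios of RNA levels, and no protein or activity was measured. The sum weighs the 3 TIMP genes equally, however well each inhibits Mmp14.

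**Figure D2:**
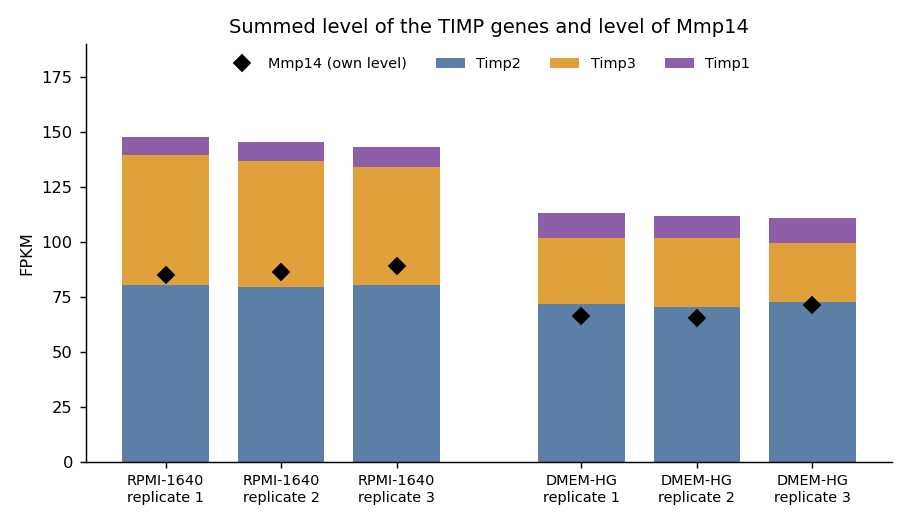
Stacked bars give the FPKM of Timp2, Timp3 and Timp1 in each library, RPMI-1640 on the left and DMEM-HG on the right, and black diamonds the FPKM of Mmp14 in the same library. The stacks reach 143 to 148 in RPMI-1640 and 111 to 113 in DMEM-HG, the Timp3 layer differs most, and the Mmp14 diamonds lie higher in the RPMI-1640 libraries.

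Both sheddases were higher in RPMI-1640. Adam10 had 34.5, 33.4 and 32.5 FPKM in the RPMI-1640 libraries, against 21.9, 20.1 and 16.6 FPKM in the DMEM-HG libraries. The DMEM-HG libraries were the more scattered, with replicate 3 the lowest, and none reached the RPMI-1640 range. The difference was 1.71-fold (log2 fold change 0.75, SE 0.083, limma adjusted p = 7.26e-06). Adam10 had a log2 fold change of 0.65 without DMEM-HG replicate 3, the only library with the code L3 in its title, which the labels do not explain. It was 0.30 with the trend removed (limma adjusted p = 0.000314). Adam17, also called TACE for its release of tumour necrosis factor, had 30.6, 31.9 and 32.1 FPKM in the RPMI-1640 libraries, against 22.0, 22.4 and 19.9 FPKM in the DMEM-HG libraries. Again no library crossed over, and the difference was 1.47-fold (log2 fold change 0.54, SE 0.057, limma adjusted p = 5.07e-06). Adam17 had a log2 fold change of 0.19 with the trend removed (limma adjusted p = 0.00137). Both genes are long by the FPKM steps, 4684 and 4476 bases, and their length bins had medians of 0.32 and 0.22. Adam10 (ENSMUSG00000054693.14) spans 70678997 to 70780229 of chromosome 9, plus strand. Adam17 (ENSMUSG00000052593.16) spans 21323509 to 21373632 of chromosome 12, minus strand, and 4.35% of its exon bases are shared with Iah1 on the opposite strand.

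**Figure D3:**
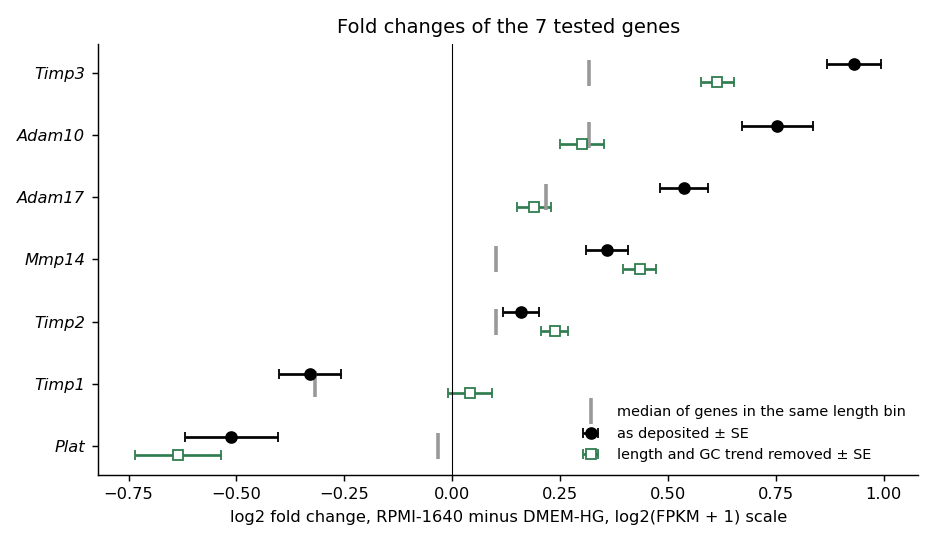
Log2 fold changes (RPMI-1640 minus DMEM-HG, log2(FPKM + 1) scale) of the 7 tested genes as deposited (filled circles, ± SE) and with the length and GC trend removed (open squares, ± SE), with grey ticks at the median of the genes in the same length bin. Timp3, Adam10, Adam17, Mmp14 and Timp2 stay above 0 in both and Plat below 0, while Timp1 goes to 0.042 with the trend removed.

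The plasminogen activators were scarce in these cells. Plat had 0.874, 1.09 and 1.20 FPKM in the RPMI-1640 libraries, against 2.00, 2.30 and 1.52 FPKM in the DMEM-HG libraries, on 87 to 229 reads per library. All RPMI-1640 values lay below all DMEM-HG values, with 1.84-fold more in DMEM-HG (log2 fold change -0.51, SE 0.11, limma adjusted p = 0.000998). The fold depended on the pseudocount at this level, with -0.87 at a pseudocount of 0.01 and also -0.87 by voom on recovered reads. It was -0.63 with the trend removed (limma adjusted p = 0.000188) and -0.62 without DMEM-HG replicate 3, the lowest of its group. Plat (ENSMUSG00000031538.6) spans 22757727 to 22782844 of chromosome 8, plus strand.

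Plau (ENSMUSG00000021822.3, chromosome 14, 20836660 to 20843385, plus strand) had 0.0898, 0.174 and 0.116 FPKM in the RPMI-1640 libraries, against 0.381, 0.130 and 0.207 FPKM in the DMEM-HG libraries. These rest on 36 reads in RPMI-1640 and 72 in DMEM-HG, and the media overlapped (exact two-sided permutation p = 0.2). DMEM-HG replicate 1 held 39 of the 72 reads, and no difference could be called between the media. Serpine2 (ENSMUSG00000026249.10, chromosome 1, 79794197 to 79861180, minus strand) had 7 reads in RPMI-1640 replicate 3 (0.0908 FPKM) and 2 in DMEM-HG replicate 3 (0.0212 FPKM), and 0 in the other 4 libraries. There a count of 0 allows up to 3 reads, or 0.0325 and 0.0378 FPKM in RPMI-1640 and 0.0329 and 0.0398 FPKM in DMEM-HG, for counting error only. The sum of Plat and Plau over Serpine2 was computed with a pseudocount of 1 and so follows Plat. On the log2 scale it was 1.08 ± 0.102 in RPMI-1640 and 1.65 ± 0.203 in DMEM-HG (exact two-sided permutation p = 0.1, the smallest possible, and 0.2 adjusted over the 2 ratios).

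The rest of the plasminogen system was present mainly as receptors and clearance proteins. Plg itself, the zymogen of plasmin, was listed at 0 in every library. The list also holds the coagulation genes F3, Tfpi and F2r, the last at 0 in every library. Of 15 listed genes, 9 were tested, of which 4 were higher in RPMI-1640, 2 lower and 3 did not pass (median log2 fold change -0.043, against 0.033 over all genes tested). Over all genes tested, 40.6% were higher and 35.4% lower. F3 and Tfpi were among the higher genes of the list (log2 fold changes 0.38 and 0.31). With the trend removed F3 was 0.36 and passed, while Tfpi was 0.050 and did not. Anxa2, which binds plasminogen and Plat at the cell surface, had 130 ± 1.44 FPKM in RPMI-1640 and 233 ± 5.72 in DMEM-HG (log2 fold change -0.83, limma adjusted p = 3.57e-08, and -0.59 with the trend removed). Lrp1 and Vldlr, endocytic receptors that clear protease and inhibitor complexes, were higher (log2 fold changes 0.47 and 0.56), but were -0.056 and -0.13 and did not pass with the trend removed. Plaur, the urokinase receptor, had 8.30 ± 0.599 FPKM in RPMI-1640 and 8.88 ± 0.315 in DMEM-HG (log2 fold change -0.088, limma adjusted p = 0.253). Its log2 fold change was 0.20 with the trend removed and then passed (limma adjusted p = 0.00807). With the trend removed the list had 2 higher, 3 lower and 4 not passing.

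In the rest of the ADAM family, Adam12, Adam19 and Adam9 were higher in RPMI-1640, with fold changes above that of Adam10. Over all genes tested, 40.6% were higher in RPMI-1640 and 35.4% lower. Of 9 listed genes of this family, 5 were tested, with 3 higher in RPMI-1640, 1 lower and 1 not passing (median 0.98). The counts were equal with the trend removed (median 0.73), but the lower gene was Adam15 as deposited (-0.32, and -0.059 without the trend) and Adam23 with the trend removed (-0.39, and 0.064 as deposited). Adam12, a sheddase found in muscle and tumours, had 11.3 ± 0.0207 FPKM in RPMI-1640 and 2.60 ± 0.353 in DMEM-HG, 4.33-fold apart (log2 fold change 1.77, limma adjusted p = 1.50e-08, and 1.32 with the trend removed). Adam19 had 10.0 ± 0.294 FPKM in RPMI-1640 and 3.58 ± 0.144 in DMEM-HG (log2 fold change 1.27, and 1.07 without the trend). Adam9 had 91.6 ± 2.13 FPKM in RPMI-1640 and 46.1 ± 3.12 in DMEM-HG (log2 fold change 0.98, or 0.73), so its level was above that of Adam10 and Adam17 in both media.

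Among the partners of the sheddases, Tspan10, Rhbdf2 and Frmd8 were lower in RPMI-1640 and Rhbdf1 was higher. Of 11 listed genes, 10 were tested, with 1 higher, 6 lower and 3 not passing (median -0.19), where 35.4% of all genes tested were lower, and 2 higher, 7 lower and 1 not passing with the trend removed (median -0.21). Scaled to a common total, 1 was higher and 3 were lower, where 2654 of 10624 genes were lower. Adam17 needs an inactive rhomboid, Rhbdf1 or Rhbdf2, to mature, and these went opposite ways. Rhbdf1 had 16.6, 15.9 and 17.1 FPKM in RPMI-1640, against 13.5, 13.3 and 15.3 FPKM in DMEM-HG (log2 fold change 0.22, limma adjusted p = 0.00832, not called under quantile normalization, and 0.46 with the trend removed). Rhbdf2 had 5.84 ± 0.334 FPKM in RPMI-1640 and 9.87 ± 0.704 in DMEM-HG (log2 fold change -0.67, limma adjusted p = 5.77e-06, and -0.44 with the trend removed). Frmd8, which stabilises the complex of Adam17 with these proteins, was lower (log2 fold change -0.48, and -0.26 without the trend). Adam10 is escorted by the 6 TspanC8 tetraspanins, of which 5 were tested, with 0 higher, 3 lower and 2 not passing. Tspan10, abundant in pigment cells, had 90.1 ± 2.76 FPKM in RPMI-1640 and 272 ± 7.52 in DMEM-HG, 3.02-fold more in DMEM-HG (log2 fold change -1.58, limma adjusted p = 8.06e-10, and -1.29 with the trend removed). Tspan14 and Tspan17 were lower by less (log2 fold changes -0.22 and -0.28). Tspan14 had -0.14 and Tspan17 had 0.21, a call in the higher direction, once the trend was removed. Tspan5 had a log2 fold change of -0.14 (limma adjusted p = 0.0579, or 0.0490 with the replicate number as a block), and Tspan15 of -0.02. With the trend removed Tspan5 was called lower at -0.29 (limma adjusted p = 0.00029), Tspan15 was 0.14 and did not pass, and the 5 tested tetraspanins had 1 higher, 3 lower and 1 not passing.

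Matrix metalloproteinases other than Mmp14 were few. Of 22 listed genes, 10 were at 0 in all libraries and 4 were tested. In either direction, 76.0% of all genes tested were called. The counts of this list were 2 higher and 2 lower in RPMI-1640 (median log2 fold change -0.012). These became 2 higher, 1 lower and 1 not passing with the trend removed (median 0.15). Mmp11, or stromelysin-3, had 6.99 ± 0.171 FPKM in RPMI-1640 and 3.56 ± 0.290 in DMEM-HG (log2 fold change 0.81, limma adjusted p = 1.29e-06, and 1.12 with the trend removed). Mmp24, another membrane-type enzyme, was lower (2.37 ± 0.135 FPKM against 3.73 ± 0.318 in DMEM-HG, log2 fold change -0.49). Mmp2, the gelatinase that Mmp14 activates, had 1.38 ± 0.285 FPKM in RPMI-1640 and 1.77 ± 0.0254 in DMEM-HG (log2 fold change -0.22, limma adjusted p = 0.0449). The call of Mmp2 was close to the threshold and did not hold with the trend removed (log2 fold change -0.048, limma adjusted p = 0.638). Mmp9, the other gelatinase, had 0.0160, 0.0620 and 0.00827 FPKM in RPMI-1640, against 0.147, 0.254 and 0.168 FPKM in DMEM-HG, on 1 to 30 reads, and was not tested.

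Among metalloproteinase inhibitors outside the set, Reck was higher in RPMI-1640. Reck, a membrane-anchored inhibitor of Mmp14, Mmp2 and Adam10, had 9.41 ± 0.186 FPKM in RPMI-1640 and 5.03 ± 0.388 in DMEM-HG (log2 fold change 0.79, limma adjusted p = 1.18e-06, and 0.60 with the trend removed). Timp4 was at 0.0280 ± 0.0363 FPKM in RPMI-1640 and 0.0946 ± 0.0734 in DMEM-HG and was not tested. Of the 7 genes of this list, 2 were tested (median log2 fold change 0.23), and the other one, Pcolce, an enhancer of procollagen processing, was lower (log2 fold change -0.34), but at -0.028 did not pass with the trend removed.

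Furin, the convertase that cuts the propeptides of Mmp14, Adam10 and Adam17, had 16.6 ± 0.156 FPKM in RPMI-1640 and 17.0 ± 1.25 in DMEM-HG (log2 fold change -0.037, SE 0.062, limma adjusted p = 0.598, and 0.025 without the trend). Among all genes tested, 40.6% were higher and 35.4% lower as deposited, and 37.2% and 36.8% with the trend removed. Of 9 listed convertases, 5 were tested, with 1 higher, 1 lower and 3 not passing, as deposited and with the trend removed (medians -0.087 and 0.086). The higher one was Mbtps1, the site-1 protease (log2 fold change 0.38, limma adjusted p = 1.78e-05, and 0.26 with the trend removed). Of 19 ADAMTS proteases, which cleave proteoglycans and procollagens, 6 were tested, with 5 higher and 1 lower both as deposited and with the trend removed (medians 0.35 and 0.44). Adamts20, a gene needed for melanoblast survival in mice, had 4.97 ± 0.0967 FPKM in RPMI-1640 and 1.15 ± 0.0448 in DMEM-HG, 4.31-fold apart (log2 fold change 1.47, limma adjusted p = 2.14e-08). Adamts12 was higher too (log2 fold change 1.03, and 0.57 without the trend), and Adamts14 lower (-0.43).

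**Figure D4:**
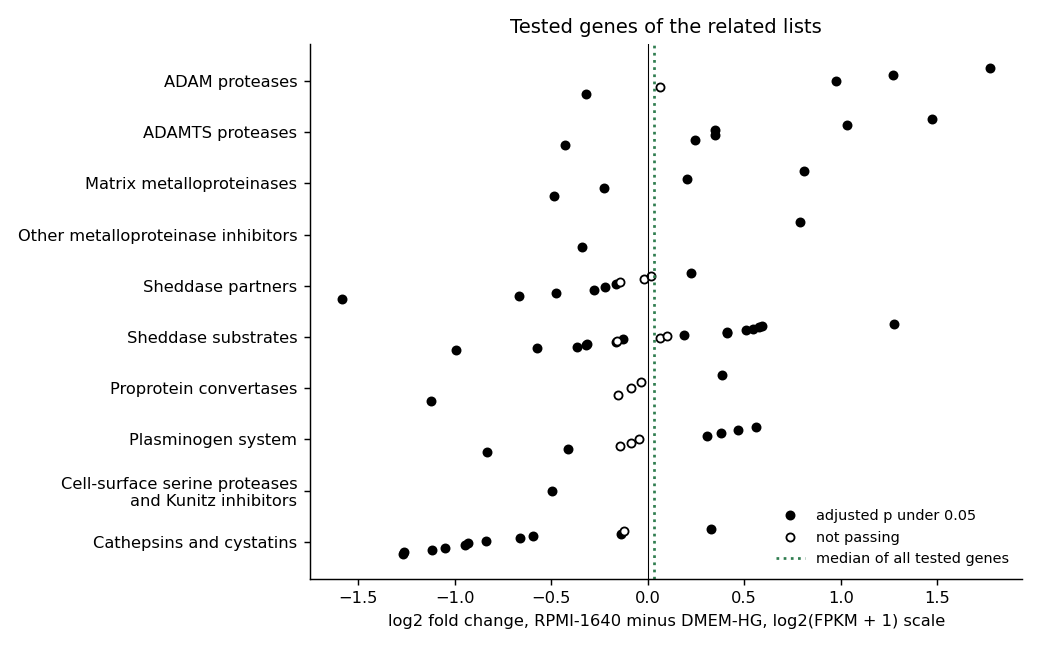
Each circle is a tested gene of a related list, placed at its log2 fold change (RPMI-1640 minus DMEM-HG, log2(FPKM + 1) scale), filled where the limma adjusted p was under 0.05 and open otherwise; the dotted line is the median of all tested genes, 0.033. ADAM and ADAMTS genes lie mostly to the right, sheddase partners and cathepsins mostly to the left, with Adam12 at 1.77 and Tspan10 at -1.58 the farthest out.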

How the data were processed

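Per the labels' protocols, Trizol was used for RNA and a SMARTer kit for mRNA libraries. The deposited values are FPKM, 1 column per library, computed by the authors; GRCm38 and mm10 are named in the submitters' processing notes. Which aligner, counter, annotation and strand setting they used is not given in the sources used here. Libraries were grouped by the medium in their titles. The 9 genes, the 10 related lists and the 6 marker lists were chosen with earlier results of these data known.

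The 10624 genes averaging 1 FPKM or more entered a limma 3.58.1 fit in R 4.3.3 of log2(FPKM + 1) on medium alone, using eBayes and its intensity trend. Its p-values are two-sided and were adjusted by Benjamini-Hochberg across those genes. The code of the fit was run on simulated data in which few genes changed and noise was independent between libraries. That setting differs from these data, so the run bears on the code and not on the calls. From each related list up to 3 called genes with the largest absolute log2 fold change are named, besides a fixed set of known partners; Syn1, Syn3, Tspan5, Tspan14, Tspan15, Tspan17, Adam15, Adam23, Ctsb, Ctsc and Ctsd were added after their values were seen, and some genes the rule names are not reported here. Whole reads were recovered from the steps of the FPKM values, within 0.001 for 10618 of 10624 genes. Library totals are the commonest value over 1292 single-transcript genes of GENCODE release M21, on which 148 of them agreed. Gene positions, exon overlaps and GC content are from the same release, an annotation of GRCm38. The length and GC trend was removed with natural splines of 5 degrees of freedom each. Replicates differed by more than counting noise (chi-square per degree of freedom 4.65 to 28.5).

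For libraries sharing a replicate number, the correlation of their deviations from the means of their media was 0.151, 0.150 and 0.382, all over 0.1, which met the rule for treating them as pairs, on the data alone. Replicates 1 and 2 were not told apart by it, since RPMI-1640 replicate 1 with DMEM-HG replicate 2 gave 0.137 and RPMI-1640 replicate 2 with DMEM-HG replicate 1 gave 0.131. With the trend removed the correlations for the same numbers were 0.0562, 0.0407 and 0.151, so the rule was not met. RPMI-1640 replicate 2 with DMEM-HG replicate 1 then gave 0.0732. Permutation tests ran in scipy 1.17.1 under Python 3.11.15 (numpy 2.4.6, pandas 2.3.3), and figures were drawn in matplotlib 3.10.9.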

Additional observations from a re-analysis of the deposited data

How the results depend on the processing

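The 7 tested genes kept direction and call in 123 of the 125 gene and setting pairs tried, which covered the replicate block, each library left out, pseudocounts of 0.01 and 0.1, other filters, scaling to a common total, by median ratios or by quantiles, the length and GC trend, limma without the mean-variance trend and voom. The exceptions were Timp1 with the trend removed (log2 fold change 0.042), without and with the replicate block. Plat had no value under a filter of 5 FPKM. The same count was not made over all genes. In the settings that tested 10624 genes, 7454 to 8432 of these were called, against 8078 as deposited. With the replicate block, 8432 genes passed in limma, and among the genes named only the calls of Syn3 and Tspan5 changed. Untested differences at low level followed the pseudocount: at 0.01 and 0.1 they were -0.79 and -0.53 for Plau (-0.13 at 1) and 0.56 and 0.22 for Serpine2 (0.032 at 1). Without DMEM-HG replicate 1 that of Plau was -0.053, and without RPMI-1640 replicate 3 that of Serpine2 was -0.010. The log2 ratio of Mmp14 to the TIMP genes differed by -0.015 as deposited, by -0.045 to 0.029 with a library left out and by 0.086 with the trend removed, without and with the replicate block. The ratio over Serpine2 could not be computed with a pseudocount of 0 or with the trend removed. For the related lists, 320 counts stayed within 1.5 times of those as deposited and 40 did not. Equal counts were among the 320, also 0 against 0, and many of the counts were small. The causes were not tested. Plau and Serpine2 rest on 39 reads or fewer per library.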

Other observations

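Cathepsins, lysosomal proteases that tumour cells can also release, were mostly lower in RPMI-1640, as were cystatins, which inhibit the cysteine proteases among them. Of 15 listed genes, 12 were tested, with 1 higher, 10 lower and 1 not passing (median log2 fold change -0.89), and 0 higher, 11 lower and 1 not passing with the trend removed (median -0.61). Over all genes tested, 35.4% were lower, and 36.8% with the trend removed. Cst6, or cystatin E/M, had 4.01 ± 0.227 FPKM in RPMI-1640 and 11.1 ± 1.78 in DMEM-HG (log2 fold change -1.27, limma adjusted p = 4.44e-07). Ctsf had 0.358 ± 0.0653 FPKM in RPMI-1640 and 2.28 ± 0.244 in DMEM-HG (log2 fold change -1.27) and reached the mean of 1 FPKM for testing only through DMEM-HG. Ctsh had 4.92 ± 0.567 FPKM in RPMI-1640 and 11.8 ± 0.183 in DMEM-HG (-1.12). The abundant Ctsb had 97.1 ± 1.73 FPKM in RPMI-1640 and 188 ± 2.16 in DMEM-HG (log2 fold change -0.95). Ctsd was lower as well (-1.05), with 37.1% of the 32-base words of the transcript used for it found in transcripts of other genes, so its level is less certain. The higher gene was Ctsc (0.33), which at -0.07 did not pass with the trend removed.

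Known substrates of Adam10 and Adam17 went both ways. Over all genes tested, 76.0% were called in either direction, and 73.9% with the trend removed. Of 30 listed genes, 18 were tested, with 8 higher, 7 lower and 3 not passing (median 0.082), and 5 higher, 7 lower and 6 not passing with the trend removed. The 3 largest log2 fold changes in size, as deposited, were those of Notch receptors. Notch2 had 10.5 ± 0.292 FPKM in RPMI-1640 and 3.75 ± 0.280 in DMEM-HG (log2 fold change 1.28, limma adjusted p = 4.33e-08, and 0.81 with the trend removed). Notch1 had 3.32 ± 0.0997 FPKM in RPMI-1640 and 1.86 ± 0.140 in DMEM-HG (0.59, and 0.27 with the trend removed). Notch3 went the other way, with 0.382 ± 0.0347 FPKM in RPMI-1640 and 1.76 ± 0.0983 in DMEM-HG (-0.995, and -1.18 with the trend removed), and was tested only because of its level in DMEM-HG. Of 15 cell-surface serine proteases and Kunitz inhibitors, only Htra3 reached a mean of 1 FPKM (1.11 ± 0.0923 in RPMI-1640 and 1.99 ± 0.154 in DMEM-HG, log2 fold change -0.50), and it did not pass with the trend removed (-0.16, limma adjusted p = 0.111).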
